A study of Mus musculus with 7 samples.

Results

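Of 21853 protein-coding genes, 9 that mark maturing and mature cerebellar granule neurons were examined in granule neuron progenitors (GNPs) before differentiation. They are *Gabra6*, *Gabrd*, *Grin2c*, *Cbln1*, *Cbln3*, *Etv1*, *Rbfox3*, *Tiam1* and *Nrep*. Peaks of H3K27ac, an acetylated histone residue found at active promoters and enhancers, and of the chromatin remodeller Chd7 were taken where their centre lay inside one of the 9 genes or within 50 kb of it. The genes were listed by name, with earlier results of these data known, and the rule itself used no measured value. The question was whether acetylation or Chd7 was already present at these genes in progenitors. H3K27ac lay at a promoter of 6 of the 9 genes, against 45.7% of all protein-coding genes, and none of the 6 encodes a neurotransmitter receptor subunit. For *Cbln3* the summit of the promoter peak lay nearer to the start of its neighbour *Khnyn*. The 3 receptor genes *Gabra6*, *Gabrd* and *Grin2c* had no H3K27ac peak at a promoter. Chd7 was called near *Nrep* and *Grin2c* only, 2 of 9 genes against 14.2% of all.

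GNPs divide in the outer layer of the postnatal cerebellum under the mitogen Sonic hedgehog (SHH), leave the cell cycle, and migrate inward to become granule neurons, which excite Purkinje cells through parallel fibres. Maturation exchanges receptor subunits and adds synaptic proteins. *Gabra6* and *Gabrd* encode the α6 and δ subunits of the extrasynaptic GABA-A receptor that gives granule neurons their tonic inhibition, and *Grin2c* encodes the NMDA receptor subunit GluN2C, which takes over from GluN2B. *Cbln1* and *Cbln3* encode secreted cerebellins, of which Cbln1 bridges presynaptic neurexins and the receptor GluD2 on Purkinje cells. *Etv1* encodes a transcription factor of the PEA3 group active in maturing granule neurons, *Rbfox3* the splicing factor NeuN, *Tiam1* an activator of the GTPase Rac that shapes dendrites and spines, and *Nrep* a small protein named for its link to neuronal regeneration.

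All cells came from C57BL/6 mice (C57BL/6N in the study's methods) at postnatal day 7 (P7). GNPs were freshly isolated, and granule neurons (CGNs) were GNPs cultured without SHH for 48 h. The study's text and legends define WT animals as *Chd7* f/f and mutants, called *Chd7* KO here, as *Atoh1-Cre::Chd7* f/f. In the mutants Cre is driven by *Atoh1* in the granule lineage. The sample titles name *Chd7* KO but give no genotype for the other libraries. By the study's definition both genotypes carried the floxed allele. ChIP-seq, in which an antibody against a protein or histone mark recovers the DNA bound to it, gave H3K27ac and Chd7 in WT GNPs, Chd7 in *Chd7* KO GNPs, and the topoisomerase Top2b in WT and *Chd7* KO CGNs. Each condition had 1 library, so no difference between libraries could be set against a spread between animals, and no test between conditions was made. The fold enrichment is the fragment pileup at a peak's summit over the local background, and its 95% Poisson interval covers counting error only. The q-value is the false discovery rate of a peak against that background.

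The tables held 31400 H3K27ac peaks, 1946 Chd7 peaks in WT and 96 in *Chd7* KO GNPs, and 17030 and 21505 Top2b peaks in WT and *Chd7* KO CGNs. The weakest H3K27ac peak had a fold enrichment of 1.77, so a gene without a peak had no enrichment that passed the authors' threshold, which does not show that acetylation was absent. As a check of the cell type, 13 of 15 progenitor genes (all but *Ccnd1* and *Hhip*) had H3K27ac at a promoter, with a median fold of 14.4. *Atoh1*, the defining factor of GNPs, was among them at 3.55-fold. Early differentiation genes were acetylated in 13 of 13 cases, with a median of 19.1. Markers of other cells of the cerebellum were acetylated in 5 of 15 cases (*Gad1*, *Slc6a5*, *Gfap*, *Mbp* and *Pax2*) at a median of 4.25-fold, while markers such as *Pcp2*, *Calb1*, *Aqp4* and *Cx3cr1* had no promoter peak. Acetylation in progenitors and acetylation in cells of the isolate that had begun to differentiate cannot be told apart in these libraries. Nor can acetylation in any other cells of the cerebellum that the isolate held.

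The sequence before the first annotated start is shown for the 3 receptor genes, which lacked promoter H3K27ac, and for 2 genes that carried it, because the CpG content of a start and its acetylation are compared further on. Each line gives 150 bases of GRCm38 (mm10), 5′ to 3′ in the direction of transcription, with CpG dinucleotides in capitals. The windows were chr11:42321073-42321222 (minus strand) for *Gabra6*, chr4:155398113-155398262 (minus) for *Gabrd*, chr11:115267244-115267393 (minus) for *Grin2c*, chr12:38779230-38779379 (plus) for *Etv1* and chr16:90143770-90143919 (minus) for *Tiam1*. None of them overlapped an annotated exon.
Gabra6: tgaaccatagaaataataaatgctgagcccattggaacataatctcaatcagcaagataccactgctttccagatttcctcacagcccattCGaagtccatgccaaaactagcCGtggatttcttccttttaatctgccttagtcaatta
Gabrd: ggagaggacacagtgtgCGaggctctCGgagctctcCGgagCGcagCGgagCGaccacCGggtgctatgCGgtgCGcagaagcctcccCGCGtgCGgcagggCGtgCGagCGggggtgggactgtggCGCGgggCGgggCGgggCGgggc
Grin2c: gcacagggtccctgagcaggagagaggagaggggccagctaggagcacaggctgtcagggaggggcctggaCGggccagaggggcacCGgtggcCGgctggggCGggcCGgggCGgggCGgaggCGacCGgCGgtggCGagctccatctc
Etv1: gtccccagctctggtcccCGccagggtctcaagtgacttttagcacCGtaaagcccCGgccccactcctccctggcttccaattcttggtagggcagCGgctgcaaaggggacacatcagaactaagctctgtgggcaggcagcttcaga
Tiam1: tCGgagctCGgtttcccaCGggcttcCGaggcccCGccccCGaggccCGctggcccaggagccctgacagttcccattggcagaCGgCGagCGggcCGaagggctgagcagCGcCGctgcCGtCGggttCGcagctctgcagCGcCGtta
The *Gabra6* sequence held 2 CpGs, against 20 for *Gabrd*, 11 for *Grin2c*, 4 for *Etv1* and 18 for *Tiam1*. The unacetylated receptor genes therefore included the most CpG-poor and the most CpG-rich of these 5 sequences. This depends on the genes shown. In the same stretch the acetylated *Cbln3* held 1 CpG, *Rbfox3* 2 and *Cbln1* 18, so a low count was not particular to genes without acetylation.

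Of all protein-coding genes, 45.7% had an H3K27ac peak that overlapped 1 kb either side of a protein-coding start, and 73.5% had a peak within 50 kb. Among the 9 genes these numbers were 6 and 8. The 8 genes held 60 H3K27ac peaks, of which 37 (61.7%) were at *Rbfox3*. The fold enrichments ran from 2.20 to 18.1 with a median of 3.94, against a median of 4.35 over all H3K27ac peaks. That pooled median is weighted to *Rbfox3*, whose own median was 3.74. The medians of the other genes ran from 3.56 (*Cbln1*) to 6.44 (*Cbln3*). The nearest protein-coding start belonged to the gene itself for 47 of the 60 peaks, and to a neighbour for the other 13. No peak of the 9 genes lay between 47.6 kb and the limit of 50 kb. The peaks just inside it were at *Tiam1* (47.6 kb from the gene, 4.07-fold), *Nrep* (46.3 kb, 8.22-fold) and *Rbfox3* (45.8 kb, 5.13-fold). Just outside it were 3 peaks of *Cbln3* between 53.7 and 55.7 kb, at 2.91- to 4.05-fold. The maps of peak positions show all 9 genes.

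**Figure D1:**
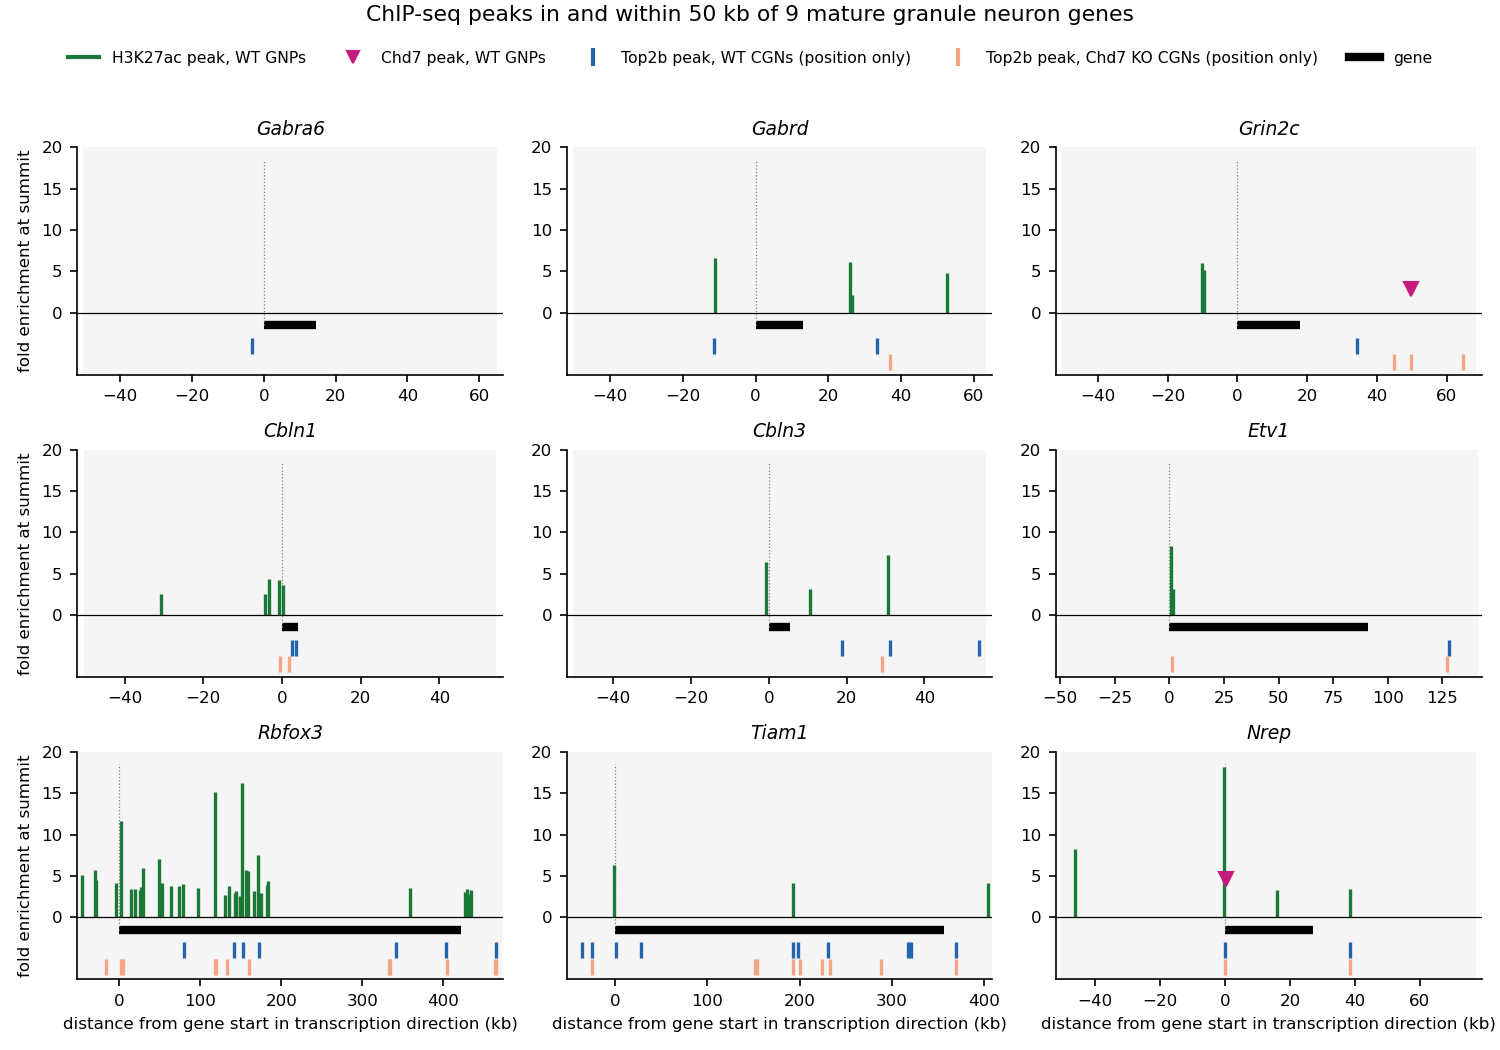
Peaks in and within 50 kb of each of the 9 genes, by distance from the gene start in the direction of transcription (kb, different scale in each panel). Green lines give the fold enrichment of H3K27ac and pink triangles that of Chd7 in WT GNPs, the black bar is the gene, and blue and orange ticks under it mark Top2b peaks in WT and *Chd7* KO CGNs, whose files give no height. *Gabra6* has no H3K27ac peak called, and the peaks in the windows of *Gabrd* and *Grin2c* are nearest to starts of other genes. The *Rbfox3* window holds 37 H3K27ac peaks, and Chd7 peaks appear in the windows of *Grin2c* and *Nrep* only.

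The receptor genes had no H3K27ac peak at a promoter or nearest to their own starts. *Gabra6* (chr11:42306437-42321072, minus strand) had no H3K27ac peak within 50 kb, and the nearest one, 99.1 kb from its start, was closest to the start of *Gabrb2*, another GABA-A subunit gene of the same cluster. *Gabrd* (chr4:155384980-155398112, minus strand) had 4 peaks in its window with folds from 2.20 to 6.60, and none had *Gabrd* as its nearest start. The strongest, at chr4:155408938-155409709, lay 0.135 kb from a start of *Cfap74*, and the other 3 were nearest to *Prkcz*, 1 of them 0.144 kb from a *Prkcz* start. The gap between the *Gabrd* start and the closest edge of a peak was 10.8 kb. *Grin2c* (chr11:115249169-115267243, minus strand) had 2 peaks of 5.22- and 6.06-fold, which lay 0.285 and 0.462 kb from starts of *Fdxr*, a gene of mitochondrial electron transfer. Their closest edge was 9.30 kb from the *Grin2c* start. Every H3K27ac peak counted for *Gabrd* and *Grin2c* was therefore nearer to a start of another gene, and with peaks assigned to the nearest start all 3 receptor genes had 0.

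Both cerebellin genes were marked, at modest height. *Cbln1* (chr8:87468405-87472609, minus strand) had 5 peaks of 2.54- to 4.34-fold, all nearest to its own start among protein-coding genes. The 2 promoter peaks were at 3.56-fold inside the gene and at 4.28-fold (95% interval 3.05 to 5.86, −log10 q of 10.4) 0.68 kb upstream. The fold of 4.28 stood at the 13.5th percentile of acetylated promoters, and the first start of *Cbln1* was the most CpG-rich of the 9. The non-coding gene *Gm2694* lies on the opposite strand, runs across *Cbln1* and spans all 5 of these peaks, and ChIP-seq does not assign a peak to a strand. *Cbln3* (chr14:55878913-55884392, minus strand) had 3 peaks, of which the one at chr14:55883929-55885525 covered its start with 6.44-fold enrichment (4.84 to 8.41, −log10 q of 22.4). The summit of that peak lay 0.747 kb upstream of *Cbln3* and only 0.192 kb from the start of *Khnyn*, which is transcribed in the other direction. Which of the 2 genes the acetylation belongs to cannot be told apart. A second peak of 7.26-fold lay at the start of *Nynrin*, and the third, of 3.11-fold, 10.6 kb from the *Cbln3* start, was within *Nynrin* itself.

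*Etv1* and *Tiam1* were acetylated at the start and hardly elsewhere. *Etv1* (chr12:38779380-38870484, plus strand) had 2 peaks, both at its cluster of starts, with folds of 8.31 (6.14 to 11.0, −log10 q of 25.6) and 3.10. No other peak lay in the 91.1 kb gene or its flanks. *Tiam1* (chr16:89787111-90143769, minus strand) is 356.7 kb long and had 3 peaks, 1 over the first start with 6.36-fold enrichment (5.06 to 7.89, −log10 q of 34.0), 1 intronic at 4.09-fold and 1 downstream at 4.07-fold. Among all acetylated promoters the strongest peaks of the 2 genes stood at the 48.5th and 32.6th percentile.

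*Rbfox3* had the most H3K27ac peaks of the 9 genes. It spans 421.8 kb (chr11:118489762-118911597, minus strand), and its window held 37 peaks, 29 inside the gene, 4 upstream and 4 downstream. All 4 downstream peaks were nearest to *Engase* and 1 upstream peak to *Enpp7*, which left 32 for *Rbfox3*. The count of 37 in the window stood at the 99.9th percentile of all genes, whose median was 2. A long window collects more peaks, and per 100 kb of window the summed H3K27ac signal (peak width times pileup) stood at the 89.7th percentile. By that measure *Nrep*, which had the higher promoter fold, was close, at the 87.0th percentile. The median fold of the 37 peaks was 3.74, and 3 peaks exceeded 10. The strongest, at chr11:118756722-118761576, was 4855 bp wide with 16.2-fold enrichment (13.8 to 19.01, −log10 q of 120.8) and covered an internal start, with its summit 152 kb from the gene start. The second, 15.1-fold, was intronic and lay 32.4 kb from the nearest coding start, across the non-coding gene *Gm11750*. The third, 11.6-fold, covered 3 starts near the beginning of the gene. Neighbouring peaks were joined into regions at the distance commonly used for super-enhancers, and the regions were ranked by signal. A region of 67.9 kb with 15 peaks ranked 77 of 17539, and a region of 34.3 kb with 7 peaks over the first starts ranked 468, both among the 613 regions above the bend of the ranked curve. Chd7 lay in 40.5% of those 613 regions and in neither of the *Rbfox3* regions. The 150 bases before the internal start (chr11:118761042-118761191, minus strand, CpG in capitals) are shown because the strongest *Rbfox3* peak covered a start with a single CpG in that stretch.
Rbfox3 internal start: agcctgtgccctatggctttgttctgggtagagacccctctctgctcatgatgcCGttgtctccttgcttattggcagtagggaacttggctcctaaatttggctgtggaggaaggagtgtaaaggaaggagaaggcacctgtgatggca

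*Nrep* (chr18:33437019-33464029, minus strand) had the highest promoter enrichment, 18.1-fold (15.4 to 21.2, −log10 q of 128.5), in a peak 3094 bp wide at chr18:33461671-33464764. The median promoter peak over all genes was 1072 bp wide. Its fold stood at the 88.3rd percentile of acetylated promoters. The summit lay 0.18 kb upstream of the *Nrep* start, in an exon of the oppositely transcribed non-coding gene *AC115117.2*. A Chd7 peak described further on lay at chr18:33463714-33464448, under this acetylation. The other 3 H3K27ac peaks, 1 intronic, 1 downstream and 1 far upstream, had folds of 3.25, 3.42 and 8.22. As a region, the promoter peak ranked 843, below the bend of the curve.

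Ordered by their strongest promoter peak, the genes were *Nrep* (18.1-fold), *Rbfox3* (16.2), *Etv1* (8.31), *Cbln3* (6.44), *Tiam1* (6.36) and *Cbln1* (4.28), followed by *Gabra6*, *Gabrd* and *Grin2c* without a peak. The counting intervals of *Nrep* and *Rbfox3* overlapped, as did those of *Etv1*, *Cbln3* and *Tiam1*, and that of *Cbln1* overlapped *Cbln3* and *Tiam1* but not *Etv1*. The intervals of *Nrep* and *Rbfox3* did not overlap those of the other 4. For *Rbfox3* this rests on the internal start, since its peak near the first starts was 11.6-fold (9.57 to 14.0) and overlapped *Etv1*. The median over all acetylated promoters was 8.49, with an interquartile range of 5.49 to 13.3. *Nrep* and the internal start of *Rbfox3* lay above that range, *Etv1*, *Cbln3*, *Tiam1* and the first starts of *Rbfox3* inside it and *Cbln1* below it.

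**Figure D2:**
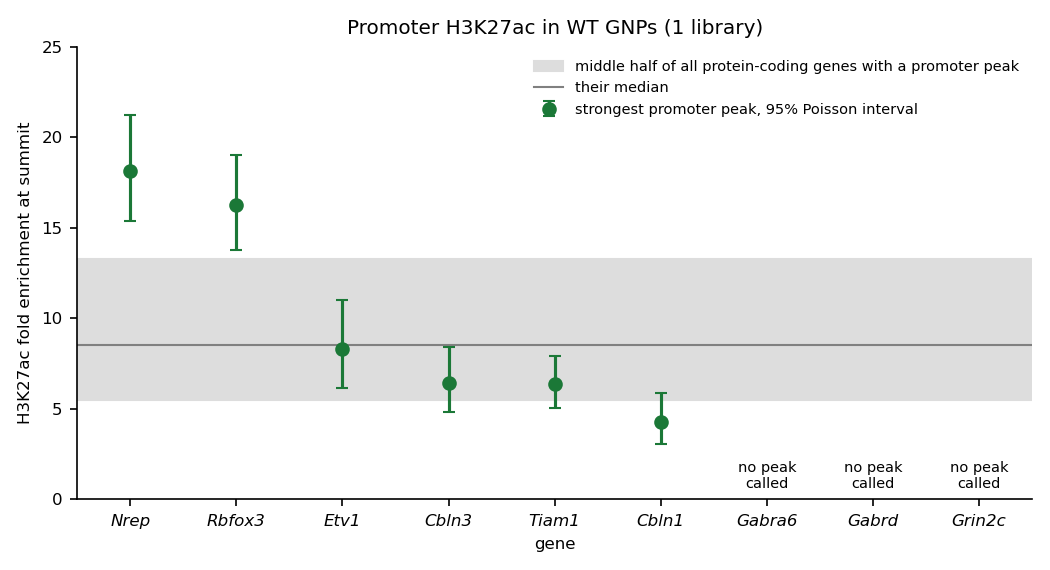
H3K27ac fold enrichment at the summit of the strongest promoter peak of each gene in WT GNPs (1 library), with the 95% Poisson interval of the fragment count. The grey band is the interquartile range of all protein-coding genes with a promoter peak, 5.49 to 13.3, and the line their median of 8.49. *Nrep* and *Rbfox3*, the latter by its internal start, lie above the band, and the 3 receptor genes have no promoter peak.

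Chd7, which slides nucleosomes at enhancers and promoters, was called at 2 of these genes. Of all protein-coding genes, 14.2% had a WT Chd7 peak within 50 kb and 4.02% had one at a promoter, and among the 9 genes these were 2 and 1, so the count within 50 kb was near the background. The promoter peak was at *Nrep* with a pileup of 25 fragments, 4.63-fold enrichment (3.06 to 6.75) and a −log10 q of 6.67, which ranked it 383 of the 1946 peaks. Its summit lay 0.182 kb inside the gene, in the first exon, and under the H3K27ac peak of 18.1-fold. The other peak was counted for *Grin2c*, at chr11:115217363-115217770, 31.7 kb beyond the end of the gene in an intron of *Tmem104*. It had a pileup of 16 fragments, 2.92-fold enrichment (1.74 to 4.63) and a −log10 q of 1.56, which ranked it 1924 of 1946, close to the weakest peak called. It overlapped no H3K27ac peak, whereas 77.9% of all Chd7 peaks did, and its nearest coding start was that of *Nat9*. The 2 peaks differed in overlap with H3K27ac and in distance from the gene, while the counting intervals of their folds overlapped. For the other 7 genes the nearest Chd7 peak was 124 kb (*Tiam1*), 129 kb (*Rbfox3*), 238 kb (*Cbln1*), 323 kb (*Cbln3*), 559 kb (*Etv1*), 1441 kb (*Gabrd*) and 1682 kb (*Gabra6*) from a start. In *Chd7* KO GNPs no Chd7 peak lay within 50 kb of any of the 9 genes, where 0.206% of all genes had one, so both WT peaks were called in WT only.

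The Chd7 peak counted for *Grin2c* is shown from 50 bases before to 50 after its summit, chr11:115217433-115217533 on the plus strand. It was chosen because, unlike the *Nrep* peak, it overlapped no called H3K27ac peak.
Grin2c-side Chd7 summit: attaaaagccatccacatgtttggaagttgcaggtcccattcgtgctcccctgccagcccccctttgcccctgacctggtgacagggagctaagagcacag
Motifs were searched on both strands, namely the E-boxes CAGCTG and CAGATG read by basic helix-loop-helix factors, TTGGC as the half-site of nuclear factor I (NFI) factors, and the cAMP response element TGACGTCA. None of them was in this stretch. TTGGC was in the corresponding window of the *Nrep* peak and in 27.7% of all Chd7 windows. In promoters from 250 bases before to 50 after the first start, TTGGC was in 6 of the 9 genes (*Cbln1*, *Gabra6*, *Rbfox3*, *Cbln3*, *Tiam1* and *Nrep*) and in 48.4% of all genes. CAGCTG was in those of *Gabrd* and *Etv1*, against 15.6% of all, CAGATG in that of *Nrep*, against 15.1%, and TGACGTCA in none, against 2.46%. TTGGC was found both with and without promoter acetylation, since *Gabra6* held it while *Gabrd* and *Grin2c* did not.

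The families of the 9 genes, counted with those genes themselves, showed which family members carried acetylation in progenitors. Of 7 NMDA receptor genes, 2 had H3K27ac at a promoter. These were *Grin2b*, the subunit that precedes GluN2C (9.31-fold), and *Grin2d* (5.52-fold), whereas *Grin1*, *Grin2a*, *Grin2c*, *Grin3a* and *Grin3b* had none. Of the 7, 4 had Chd7 within 50 kb (*Grin1*, *Grin2c*, *Grin2d* and *Grin3b*). Of 13 GABA-A receptor genes, 4 had promoter acetylation, among them *Gabra2* (5.56-fold) and *Gabrb2* (4.33-fold), and none had Chd7 within 50 kb. *Gabra6* and *Gabrb2*, which share a cluster, thus differed in having a promoter peak. Of 9 cerebellin and cerebellin receptor genes 6 were acetylated, *Cbln1* and *Cbln3* among them, while *Cbln2*, *Cbln4* and *Grid1* were not. Among 8 Rbfox, PEA3 and Tiam genes 5 were. These were *Rbfox3*, *Etv1* and *Tiam1* of the 9 genes, and their relatives *Rbfox1* and *Rbfox2*. *Rbfox2* (14.1-fold) was closer to *Rbfox3* than *Rbfox1* was (4.95-fold). *Etv1* was acetylated where its relatives *Etv4* and *Etv5* were not, and *Tiam1* where *Tiam2* was not.

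Set beside genes of other stages, the median promoter fold of the 6 acetylated genes was 7.38. It was 5.23 for the 10 acetylated of 16 further late granule neuron and synapse genes, 19.1 for the early differentiation genes and 14.4 for the progenitor genes. For the 5 acetylated of 15 markers of other cells of the cerebellum the median was 4.25, close to *Cbln1* (4.28). Among those markers *Mbp* had 7.30-fold, above *Cbln3* (6.44) and *Tiam1* (6.36). Chd7 lay within 50 kb of 4 of 16 late genes, 6 of 13 early genes and 9 of 15 progenitor genes. *Nrep* (18.1-fold) lay closest to the early median. The internal start of *Rbfox3* (16.2-fold) lay between the progenitor and early medians, and the other 4 genes lay below both. The lists overlapped in height, since the early gene *Gap43* had 6.99-fold and the late gene *Chgb* 12.7-fold. Height therefore assigns none of the 9 genes to a stage. These counts describe 1 library of each kind, and no difference between the lists was tested.

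**Figure D3:**
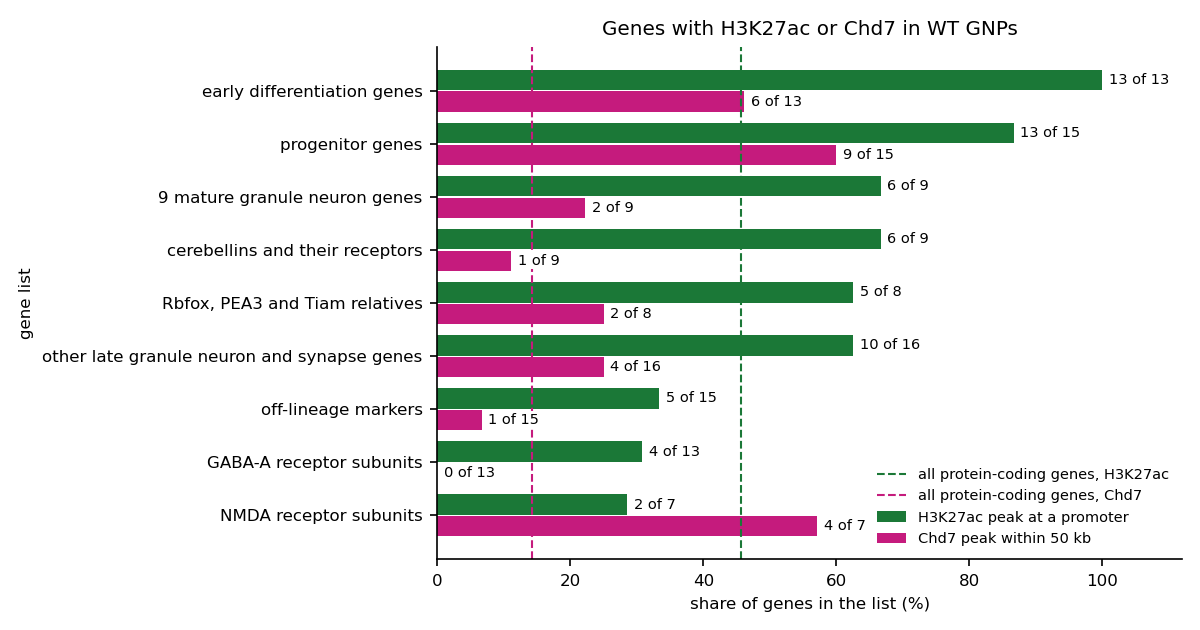
Share of genes (%) with an H3K27ac peak at a promoter (green) or a Chd7 peak within 50 kb (pink) in WT GNPs, by gene list, with the count beside each bar. Dashed lines mark all protein-coding genes, 45.7% for H3K27ac and 14.2% for Chd7. The GABA-A and NMDA receptor families and the off-lineage markers lie below the line for H3K27ac. The NMDA receptor family, with 4 of 7 genes, lies above the line for Chd7, and early and progenitor genes lie above both lines.

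CpG content separated the genes without promoter acetylation from each other. CpG observed/expected is the number of CpGs in 1 kb around the first start over the number expected from its C and G content. Over all genes its median was 0.561, and the share with H3K27ac within 1 kb of the first start was 2.12% below 0.2, 9.85% from 0.2 to 0.4, 38.5% from 0.4 to 0.6, 69.2% from 0.6 to 0.8 and 85.3% from 0.8. *Gabra6* had a value of 0.160 and lay in the class in which few genes were acetylated. *Gabrd* (0.647) and *Grin2c* (0.709) lay in the class in which 69.2% were, and had no peak, while *Tiam1* (0.736) of the same class had one. *Cbln1* (0.882) and *Nrep* (0.850) were alike in CpG and differed in promoter fold, 4.28 against 18.1. *Etv1* had 0.596 and *Cbln3* 0.259. *Rbfox3* had 0.104 at its first start, which lay within 1 kb of a peak but not under it, 0.761 at a start further into the gene that this peak covered, and 0.225 at the internal start under its strongest peak. Among the 9 genes, CpG content and acetylation were therefore not in the same order.

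**Figure D4:**
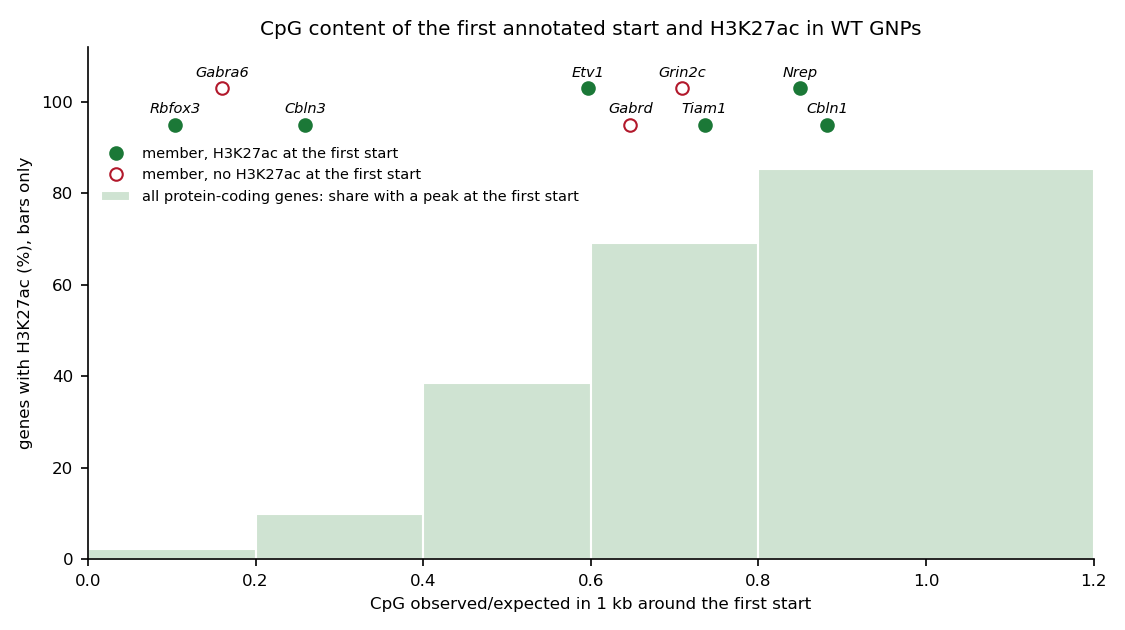
Bars give the share of all protein-coding genes (%) with H3K27ac in WT GNPs within 1 kb of the first annotated start, by CpG observed/expected in 1 kb around it, with all values from 0.8 in the last bar. Circles mark the CpG value of the 9 genes (height has no meaning), filled where the first start had H3K27ac, and the open circles show *Gabra6* at 0.160 and *Gabrd* and *Grin2c* at 0.647 and 0.709.

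Top2b, which cuts and rejoins both DNA strands to release torsion, was measured after 48 h without SHH. Of all genes, 62.1% in WT and 70.9% in *Chd7* KO CGNs had a Top2b peak within 50 kb. All 9 genes had one in WT and 8 in *Chd7* KO CGNs, where *Gabra6* had none. The nearest coding start belonged to the gene itself for 23 of the 29 WT peaks and 25 of the 32 *Chd7* KO peaks. Every Top2b peak counted for *Gabrd* and *Cbln3*, in both genotypes, was nearer to a start of another gene. The same held for the peaks of *Grin2c* in *Chd7* KO CGNs. The 2 libraries agreed at few places, since 16.8% of WT peaks and 13.3% of *Chd7* KO peaks overlapped each other genome-wide, so a peak present in 1 genotype only was the usual case. The peaks of *Gabra6* and of *Grin2c* in WT, and the 3 of *Grin2c* in *Chd7* KO CGNs, lay outside H3K27ac of GNPs, and the single one of *Gabra6* was 3.12 kb upstream of its start. *Rbfox3* had 7 peaks in WT and 12 in *Chd7* KO CGNs, of which 3 and 5 lay in H3K27ac, and *Tiam1* had 10 and 9, of which 1 in each genotype did. The 2 Top2b peaks of *Nrep* were the only ones of a gene to be shared in full by both genotypes, 1 of them over the promoter where Chd7 and H3K27ac lay in GNPs. The remaining genes had 1 to 3 peaks in each genotype, and none of these was shared. Beside that promoter, 1 further Top2b peak of the 9 genes overlapped a Chd7 peak, the *Chd7* KO peak at chr11:115217281-115217680 over the weak Chd7 peak beyond *Grin2c*. In all, 8 of 29 WT peaks and 11 of 32 *Chd7* KO peaks of the 9 genes lay in H3K27ac of GNPs, against 17.4% and 26.6% of all Top2b peaks.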

How the data were processed

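Peak tables of 5 ChIP-seq libraries were used. Per the labels and the study's methods, the authors trimmed reads (Trim Galore), mapped them to mm10 (Bowtie 1.0.0, single alignments only) and called GNP peaks with MACS2 at default settings and Top2b peaks with HOMER. The deposited pileup is a coverage signal at the summit, and the deposited MACS2 fold enrichment, −log10 p-value and −log10 q-value columns had lost their decimal points, which were restored by dividing by 100000 and checked by recomputing p-values. H3K27ac pileups are multiples of 0.94118, as after scaling to a control, and were divided by it before intervals were computed. The control library is not given in the sources used here. The Top2b files hold positions only. Input libraries, and read coverage outside peaks, were not analysed here, and read depth is unknown.

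Genes were the protein-coding genes of GENCODE M21 with a coding transcript on the assembled nuclear chromosomes. Peaks were assigned by centre, promoters by overlap of at least 1 bp with 1 kb around any coding start. Sequences and CpG counts came from RefSeq's GRCm38.p6 assembly, with coding starts from GENCODE. Every one of the 9 genes was named, family partners were named by family except some that are not reported here, and neighbours were named where a result turned on them. The genes and lists were chosen with earlier results of these data known. Window and promoter counting was tested on simulated data. The analysis ran in Python 3.11.15 with scipy 1.17.1 for intervals, numpy 2.4.6 and pandas 2.3.3 for tables, and matplotlib 3.10.9 for plots.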

Additional observations from a re-analysis of the deposited data

How the results depend on the processing

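No paired analysis was possible because each condition had 1 library and no result came from a test between conditions. The 6 genes with promoter H3K27ac remained 6 with a −log10 q of at least 5, with 2.5 kb around a start and with the gene's 5′ end only, and were 5 with a −log10 q of at least 20. By nearest start, the promoter peak of *Cbln3* goes to *Khnyn*. The 60 H3K27ac peaks became 35 inside genes only. The 2 WT Chd7 peaks, at 2 genes, became 1 at 1 gene with a −log10 q of at least 5, within 10 kb and by nearest start, and 0 at 0 genes inside genes only, since the centre of the *Nrep* peak lies just outside the annotated gene. Genes with Top2b, 9 in WT and 8 in *Chd7* KO CGNs, were 4 and 5 inside genes only and 5 and 5 within 10 kb. The shares of all protein-coding genes at these altered settings are not given here. Whether the changed counts differ from those of all genes therefore cannot be read from them. Weak Chd7 binding, acetylation under the peak threshold and variation between animals cannot be seen in these files.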
